A study of Mus musculus with 59 samples.

Results

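The genes described here are 10 markers of simple, luminal-type epithelium: the keratins Krt7, Krt8, Krt18 and Krt19, the adhesion genes Epcam and Cdh1, the tight junction claudins Cldn3, Cldn4 and Cldn7, and the apical mucin Muc1. They were picked out by symbol, from a list drawn up with earlier results of these data known, and all 10 were found among the 55421 genes of the gene table. Intronic reads were listed for 8 of them, since Cldn3 and Cldn4 are single-exon genes. The tumors came from mice carrying PyMT (+/-) on B6.FVB-Tg(MMTV-PyVT)634Mul/LellJ, in which the mouse mammary tumor virus promoter drives the polyoma middle T oncogene in mammary epithelium, and every group carries this transgene. The 59 libraries of total RNA from flash-frozen mammary tumor tissue fell into 3 groups by treatment: vehicle (n = 19), methylparaben (n = 20) and propylparaben (n = 20), the parabens being the methyl and propyl esters of para-hydroxybenzoic acid used as preservatives. Doses, exposure times and ages are not given in the labels. Replicate numbers within a group follow the order of the records and are not the tumor numbers in the sample titles. The labels do not tie each library to an animal of its own, and p-values therefore speak only to the spread among these libraries, part of which may be technical.

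Simple epithelia build their intermediate filaments from pairs of one type II keratin (Krt7 or Krt8) and one type I keratin (Krt18 or Krt19), and in the mammary gland these mark the luminal layer, while Krt5 and Krt14 mark the basal layer. Cdh1 (E-cadherin) holds neighboring epithelial cells together at adherens junctions, Epcam is an adhesion protein of the same cells, claudins seal tight junctions, and Muc1 coats the apical surface. Loss of these genes together is a textbook feature of epithelial-mesenchymal transition, in which repressors of the Snail and Zeb families bind E-box sequences in their promoters.

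The RefSeq promoter table (build GRCm38.p6) held promoters, from 250 bases before to 50 after the start site, for 8 of the 10 genes. Cdh1 and Krt19 had no entry. The E-box searched was CAGGTG on either strand, so it also reads CACCTG. It was present in 8 of the 9 promoters of these genes (Cldn7 has 2, of which 1 held it), against 20.2% of the 32851 promoters of the same length and 23.6% of the 12621 promoters whose G+C content lay in the range of these genes (52 to 66.3%). The 5 promoters below are shown because Krt8 with Krt18 and Cldn3 with Cldn4 are neighboring pairs whose levels rose and fell together among tumors, and because Epcam had the highest level per exon length. Capitals mark each E-box, and each sequence runs 5′ to 3′ on the strand of its gene.
Krt8 promoter (chr15:102004293-102004592, minus strand): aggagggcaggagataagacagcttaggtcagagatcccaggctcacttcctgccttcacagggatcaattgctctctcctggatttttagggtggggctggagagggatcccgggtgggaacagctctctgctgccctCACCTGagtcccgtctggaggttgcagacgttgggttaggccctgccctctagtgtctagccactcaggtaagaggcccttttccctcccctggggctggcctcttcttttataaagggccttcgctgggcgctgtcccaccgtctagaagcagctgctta
Krt18 promoter (chr15:102027966-102028265, plus strand): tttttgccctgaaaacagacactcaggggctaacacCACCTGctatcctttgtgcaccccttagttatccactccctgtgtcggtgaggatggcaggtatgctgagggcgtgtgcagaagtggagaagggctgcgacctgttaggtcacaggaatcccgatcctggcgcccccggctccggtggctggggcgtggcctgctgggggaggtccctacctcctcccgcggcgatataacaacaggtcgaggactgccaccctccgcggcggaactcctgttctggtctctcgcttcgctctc
Cldn3 promoter (chr5:134985964-134986263, plus strand): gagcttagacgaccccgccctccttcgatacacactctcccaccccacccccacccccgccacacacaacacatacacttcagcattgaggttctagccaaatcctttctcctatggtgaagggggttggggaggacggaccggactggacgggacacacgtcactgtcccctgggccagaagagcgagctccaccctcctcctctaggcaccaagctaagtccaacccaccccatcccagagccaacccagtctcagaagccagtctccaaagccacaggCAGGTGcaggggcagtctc
Cldn4 promoter (chr5:134946885-134947184, minus strand): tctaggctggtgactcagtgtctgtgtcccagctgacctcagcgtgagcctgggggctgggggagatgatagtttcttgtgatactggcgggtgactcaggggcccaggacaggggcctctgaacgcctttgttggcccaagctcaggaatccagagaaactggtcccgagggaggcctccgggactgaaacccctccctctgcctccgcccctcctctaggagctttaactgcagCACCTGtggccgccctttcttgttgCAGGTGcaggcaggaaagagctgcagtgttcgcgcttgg
Epcam promoter (chr17:87635729-87636028, plus strand): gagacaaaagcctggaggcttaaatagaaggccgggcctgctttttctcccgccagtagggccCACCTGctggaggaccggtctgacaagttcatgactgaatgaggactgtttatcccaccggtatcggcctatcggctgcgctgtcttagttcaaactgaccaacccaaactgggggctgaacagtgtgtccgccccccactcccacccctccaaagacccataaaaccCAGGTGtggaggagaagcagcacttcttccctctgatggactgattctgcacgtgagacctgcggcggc
Of these 5, the Cldn4 and Epcam promoters each held 2 E-boxes and the Krt8, Krt18 and Cldn3 promoters 1 each. A GC box (GGGCGG, either strand) was present in 6 of the 9 promoters against 35.7% of all promoters. The TATA box motif (TATAAA, either strand) was found in 2 of 9, those of Krt8 and Muc1, against 13.6%. Relative to the start site, the match began at -31 in Muc1 but at -3 and -1 in Krt8. For Krt8, on the minus strand, GENCODE M21 places the start at 102004482, upstream of the RefSeq start used for this window. The positions of motifs in Krt8, its E-box included, therefore depend on the annotation. The AP-1 motif TGANTCA was found in the promoter of Cldn4 (7.81% of all promoters), and the Grainyhead motif AACNGGTT in that of Muc1 (2.09%). A match describes the letters in the window and does not show that a factor binds there.

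Depth was low for RNA sequencing, between 1166500 and 2032790 reads on genes per library (mean 1595230 ± 207829, SD, n = 59), of which 2271 to 7081 fell on the 10 genes. The most reads per library were on Cdh1 (821 to 2798, median 1770) and the fewest on Muc1 (20 to 135, median 68), Cldn4 (31 to 328) and Krt7 (51 to 298). Counting error at the median read number was 2.38% for Cdh1 and 12.1% for Muc1. The spread between tumors was larger than that for every one of the genes, with coefficients of variation from 16.5% (Epcam and Cdh1) to 43.7% (Cldn4). Markers of mammary epithelium were present. All 20 genes of a luminal list, which includes these 10, and all 12 of a basal list passed the level filter. That filter is a mean of 1 and was also passed by all 13 adipocyte, 11 muscle, 12 fibroblast, 10 endothelial and 10 macrophage markers. Passing it therefore does not set a mammary epithelial tumor apart from other tissue. Stromal and neighboring tissue was present as well, with summed adipocyte markers from 69.0 to 15697 and summed skeletal muscle markers from 7.66 to 10821 (scaled CPM, 13 and 11 genes), both highest in methylparaben replicate 5. In bulk tissue, fewer cells of a type and less RNA per cell cannot be told apart.

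Levels are given as the deposited scaled CPM, a gene's reads relative to the library total after scaling between libraries, and for comparison between genes per kilobase of merged exons. Per kilobase, Epcam stood highest at 190 ± 31.3 (SD, n = 59), followed by Cdh1 at 165 ± 27.1, Krt18 at 106 ± 23.2, Cldn3 at 92.5 ± 18.0, Krt19 at 75.1 ± 27.3, Cldn7 at 43.5 ± 8.67, Krt8 at 39.7 ± 8.24, Cldn4 at 27.8 ± 12.1, Muc1 at 12.5 ± 4.02 and Krt7 at 7.45 ± 2.597. Neighbors in this order did not differ beyond their spread between Epcam and Cdh1, Krt18 and Cldn3, Cldn3 and Krt19, or Cldn7 and Krt8. The other 5 steps exceeded the larger SD on the log2 scale. Among the 14483 tested genes with a length, Epcam lay at the 99.3 percentile per kilobase, Cdh1 at 99.1 and Krt18 at 98.3, and 8 of the 10 genes lay above 90, whereas Muc1 lay at 78.6 and Krt7 at 66.4. Krt7 was divided by 7049 exon bases merged from 5 transcripts, the longest of the 10, so its level per kilobase depends on which transcripts the tumors use.

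**Figure D1:**
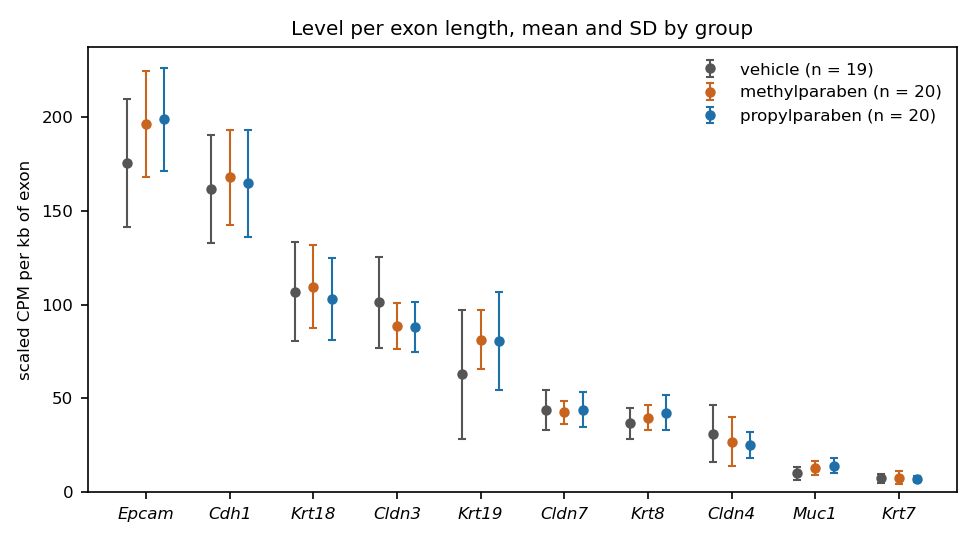
Mean level per kilobase of merged exons (scaled CPM per kb, linear axis) of the 10 genes, ordered from high to low. Points and whiskers give mean and SD in vehicle (n = 19), methylparaben (n = 20) and propylparaben (n = 20); the order from Epcam (190) to Krt7 (7.45) spans all 3 groups, and the vehicle mean of Krt19 lies below both paraben means.

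The keratin pairs were not present in equal amounts. Per kilobase, the type I keratins Krt18 and Krt19 together made up 79.1% ± 2.44 of the 4 keratins (SD, n = 59), with a narrow range of 72.0 to 84.9% among tumors. This share depends on the exon length taken for Krt7, 7049 bases against 1437 for Krt18, 1855 for Krt19 and 1958 for Krt8. It would be lower if the tumors use shorter Krt7 transcripts. Krt18 exceeded its partner Krt8 in every tumor, by 1.75 to 4.17 times. That ratio was 2.93 ± 0.56 in vehicle, 2.77 ± 0.455 in methylparaben and 2.46 ± 0.38 in propylparaben, and the groups overlapped. The share of Krt19 among the type I keratins varied more, from 18.9% in vehicle replicate 14 to 57.9% in vehicle replicate 11, and averaged 35.6% ± 9.66 in vehicle, 42.8% ± 5.71 in methylparaben and 43.1% ± 7.25 in propylparaben. These ratios are given as a description with no test.

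The comparison of each paraben with vehicle asks whether the luminal and junction genes change in exposed tumors. By limma over all genes, 0 of the 10 genes passed an adjusted p of 0.05 for methylparaben against vehicle, where 1.32% of the 14487 genes tested passed. For propylparaben against vehicle 0 of 10 passed (0.0276% of all genes), and between the esters 0 of 10 passed (0% of all genes). At an unadjusted p under 0.05 the counts were 3 of 10 for methylparaben (22.1% of all genes), 5 of 10 for propylparaben (18.4%) and 0 of 10 between the esters (2.15%). With edgeR on recovered reads, 0 of 10 passed in each comparison, where 4.27%, 0.152% and 0.117% of all genes passed for methylparaben against vehicle, propylparaben against vehicle and propylparaben against methylparaben. DESeq2 called 4.89%, 1.93% and 0% of the genes to which it gave an adjusted p, and among the 10 only Muc1, for propylparaben. The median log2 difference of the 10 genes was 0.06 with methylparaben and 0.04 with propylparaben, beside 0.005 and -0.0005 for all genes tested.

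**Figure D2:**
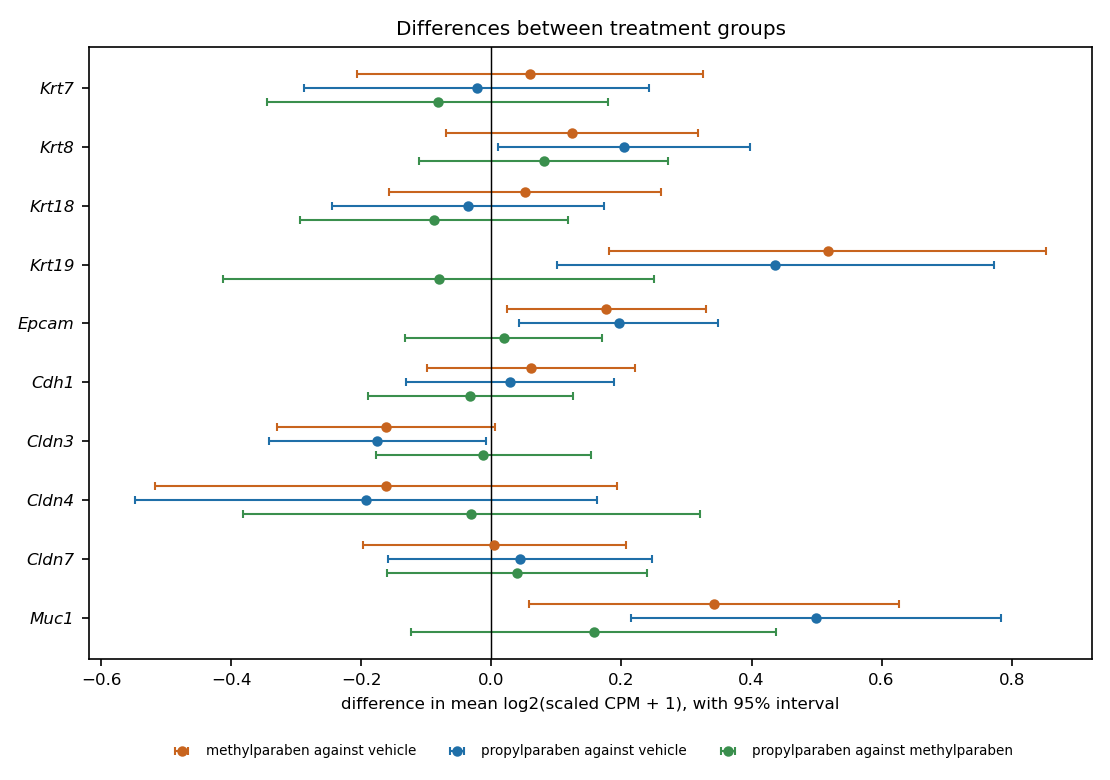
Difference in mean log2(scaled CPM + 1) for each gene and comparison (horizontal axis), with 95% intervals from the limma fit of 59 tumors. Krt19, Epcam and Muc1 lie to the right of 0 in both comparisons with vehicle, Cldn3 and Cldn4 to the left, and the intervals between the esters all include 0; none of the 30 differences passed the adjusted threshold.

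Krt19, the smallest type I keratin and a marker of luminal cells, had the largest difference with methylparaben. In vehicle its level ranged from 47.9 to 312 (median 108, mean 117 ± 63.6 SD, n = 19), in methylparaben from 107 to 220 (median 153, mean 151 ± 29.1, n = 20) and in propylparaben from 40.4 to 230 (median 144, mean 149 ± 48.7, n = 20). The lowest methylparaben tumor stood just under the vehicle median, 18 of 20 methylparaben and 16 of 20 propylparaben tumors lay above that median, and the groups overlapped, with vehicle replicate 11 the highest of all and propylparaben replicate 12 the lowest. The log2 difference was 0.52 ± 0.17 (SE; 95% interval 0.18 to 0.85; limma adjusted p = 0.0736) for methylparaben and 0.44 ± 0.17 (0.10 to 0.77; adjusted p = 0.157) for propylparaben. On recovered reads, edgeR gave smaller values, 0.36 for methylparaben (adjusted p = 0.186) and 0.36 for propylparaben (adjusted p = 0.235). DESeq2 gave 0.38 (adjusted p = 0.145) and 0.37 (adjusted p = 0.185). The methylparaben difference passed when vehicle replicate 5, 9, 11 or 17 was left out, with a limma adjusted p of 0.0255 to 0.048 and a log2 difference of up to 0.61. Without the 7 libraries at the low end of the leading principal component of all genes (vehicle replicates 7, 8, 10, 13, 14 and 19 and propylparaben replicate 1, called the 7 low-end libraries here) it was 0.23 for methylparaben and 0.15 for propylparaben. With the adipocyte, muscle, fibroblast, macrophage and lymphocyte marker scores as covariates it was 0.36 and 0.27. The 7 low-end libraries were also high in markers of cell division. Their summed mitosis markers ranked from 48 (vehicle replicate 13) to 59 (vehicle replicate 10), counted from the lowest of 59.

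Muc1, a transmembrane mucin of the luminal surface, had the smallest p with propylparaben. It ranged from 9.35 to 37.4 in vehicle (median 22.6, mean 23.9 ± 8.10 SD), from 11.9 to 45.4 in methylparaben (median 32.9, mean 30.2 ± 8.72) and from 19.3 to 48.8 in propylparaben (median 34.4, mean 33.4 ± 9.21). Among the propylparaben tumors, 17 of 20 lay above the vehicle median, as did 16 of 20 methylparaben tumors, and all 3 groups overlapped. The log2 difference was 0.50 ± 0.14 for propylparaben (95% interval 0.21 to 0.78; limma adjusted p = 0.0774) and 0.34 ± 0.14 for methylparaben (0.06 to 0.63; adjusted p = 0.146). For propylparaben DESeq2 gave 0.50 with an adjusted p of 0.0437, and edgeR 0.49 with an adjusted p of 0.0808. The limma adjusted p was 0.0369 to 0.0462 when vehicle replicate 5, vehicle replicate 17 or propylparaben replicate 1 was left out, and over the settings that kept every library of the groups compared it ranged from 0.0751 to 0.638. Without the 7 low-end libraries the log2 difference was 0.39 for propylparaben and 0.22 for methylparaben, and with the composition scores as covariates 0.43 and 0.26, none of them past the threshold. Muc1 carried the fewest reads of the 10 genes.

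Epcam ranged from 235 to 492 in vehicle (median 408, mean 385 ± 74.8 SD), from 325 to 582 in methylparaben (median 429, mean 430 ± 62.1) and from 318 to 557 in propylparaben (median 444, mean 436 ± 60.2). The 3 lowest tumors of all were vehicle replicates 10, 7 and 14, and the upper ends of the groups overlapped. Its log2 difference was 0.18 ± 0.08 for methylparaben and 0.20 ± 0.08 for propylparaben, with limma adjusted p of 0.161 and 0.162. Without the 7 low-end libraries, which include those 3 tumors, it was 0.06 and 0.09. Cdh1, the most abundant of the 10 before correction for length, had means of 738 ± 131 in vehicle, 767 ± 115 in methylparaben and 752 ± 131 in propylparaben, and log2 differences of 0.06 ± 0.08 and 0.03 ± 0.08. The 95% intervals for Cdh1, from -0.10 to 0.22 and from -0.13 to 0.19, were narrower than those of every claudin and keratin here.

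The claudins differed among themselves. Cldn3 ranged from 61.7 to 211 in vehicle (median 130, mean 127 ± 30.3 SD), from 89.0 to 143 in methylparaben (mean 112 ± 15.4) and from 81.4 to 140 in propylparaben (mean 111 ± 16.7). Only 1 of 20 methylparaben and 3 of 20 propylparaben tumors lay above the vehicle median, while the single lowest tumor, vehicle replicate 4, was itself a vehicle tumor. The log2 difference of Cldn3 was -0.16 ± 0.08 for methylparaben (limma adjusted p = 0.241) and -0.18 ± 0.08 for propylparaben (adjusted p = 0.249), and without the 7 low-end libraries it was -0.04 and -0.06. Cldn4, which lies 39.3 kb from Cldn3 on chromosome 5, had wider ranges, from 14.5 to 108 in vehicle, 21.2 to 134 in methylparaben and 26.5 to 72.2 in propylparaben. Its log2 differences, -0.16 ± 0.18 and -0.19 ± 0.18, had intervals that reached from -0.52 to 0.19 and from -0.55 to 0.16. With the composition scores as covariates the methylparaben value of Cldn4 turned to 0.032. Cldn7 showed nearly the same mean in the 3 groups, 85.1 ± 20.8, 83.1 ± 11.9 and 85.9 ± 17.8, with log2 differences of 0.00 ± 0.10 and 0.04 ± 0.10, and the sign of the methylparaben value changed with the scaling.

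Among the other keratins, Krt8 had means of 72.1 ± 16.1 in vehicle, 77.9 ± 12.7 in methylparaben and 82.9 ± 18.1 in propylparaben, and 16 of 20 tumors of each paraben group lay above the vehicle median. The log2 difference of Krt8 was 0.20 ± 0.10 for propylparaben (limma adjusted p = 0.244) and 0.12 ± 0.10 for methylparaben. Its partner Krt18 had means of 154 ± 37.5, 157 ± 31.8 and 148 ± 31.5 and log2 differences of 0.05 ± 0.10 and -0.04 ± 0.10. Krt7 had means of 52.4 ± 17.8, 54.9 ± 23.8 and 50.2 ± 12.003, and its highest value, 144 in methylparaben replicate 20, was the only one above 100. Reads aligned to several places made up 10.95 to 15.8% of a library and were not assigned to genes, which may lower genes with near-identical copies.

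**Figure D3:**
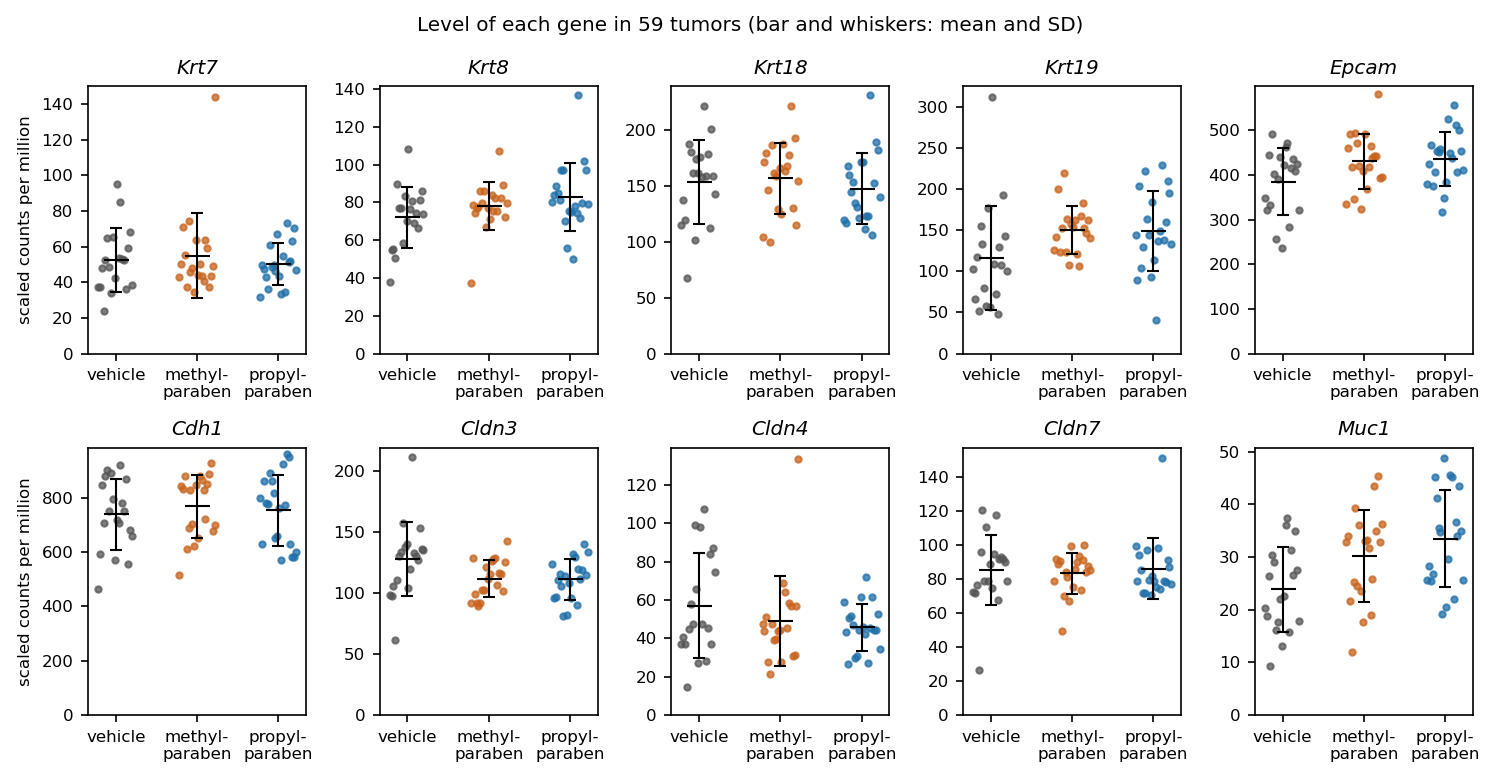
Level of each gene in the 59 tumors (scaled CPM, linear axes from 0, 1 panel a gene). Points are tumors, and the bar and whiskers give the mean and SD of each group; the groups overlap in every panel, and single tumors stand apart, such as vehicle replicate 11 for Krt19 (312) and methylparaben replicate 20 for Krt7 (144) and Cldn4 (134).

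The comparison between the esters, which differ in the length of the alkyl chain, gave no member past the threshold. Log2 differences of propylparaben against methylparaben ran from -0.09 (Krt18) to 0.16 (Muc1). The 95% interval was -0.12 to 0.44 for Muc1, -0.41 to 0.25 for Krt19 and -0.13 to 0.17 for Epcam. Differences of up to these bounds are therefore not excluded, and the esters are not shown to act alike.

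The same genes were read in introns, which report unspliced RNA. For 8 genes with intron values, 0 passed in any comparison, as for all 14281 introns tested (0% in each comparison). The intron level of Krt19 was 17.9 ± 14.6 in vehicle, 21.9 ± 10.7 in methylparaben and 18.6 ± 8.14 in propylparaben (SD), and its log2 difference was 0.46 ± 0.24 for methylparaben and 0.27 ± 0.24 for propylparaben. Introns of Cdh1, at 480 ± 134, 467 ± 84.1 and 449 ± 61.7, differed by -0.02 ± 0.09 and -0.06 ± 0.09. For Krt18 the intron difference with propylparaben was -0.41 ± 0.22 (limma unadjusted p = 0.0651, adjusted p = 0.445). Of its propylparaben tumors, 18 of 20 lay below the vehicle intron median of 25.99. Intronic reads numbered 307255 to 1059350 per library, and introns of Krt18 and Krt19 averaged 22.4 and 19.5 scaled CPM (n = 59). Both therefore rest on few reads in a library. The difference between gene and intron level, a measure of spliced against unspliced RNA, was tested for 7 of the genes. None passed, again as for all 6667 genes tested (0% in each comparison), and the value for Krt18 with propylparaben was 0.37 ± 0.18 (limma unadjusted p = 0.0492, adjusted p = 0.681). Muc1 introns averaged 3.05 and were too few for that test.

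Across tumors, after the group means were removed, the level of a gene was compared with that of its own introns. The correlation was highest for Epcam (Pearson r = 0.80, permutation p = 1e-05, the smallest that 100000 permutations can give; Spearman rho = 0.81, p = 1e-05) and Cdh1 (r = 0.68, p = 1e-05; rho = 0.67, p = 1e-05), and was lowest for Krt8 (r = 0.22, p = 0.0804; rho = 0.26, p = 0.0372). Of the 8 genes, 7 passed an adjusted p of 0.05 over these 8 relations, which were added after the data were seen, and Krt8 did not. Over the 6667 genes with both means of at least 10 the median r was 0.41, and within them Epcam lay at the 92.7 percentile, Cdh1 at 81.6, Krt7 at 51.2 and Krt8 at 27.04. Without the 2 tumors farthest from the median of the intron level, r was 0.76 for Epcam, 0.63 for Cdh1 and 0.29 for Krt8. Mean intron levels were 465 for Cdh1 and 229 for Epcam, but 15.3 for Krt8 and 11.1 for Krt7 (scaled CPM, n = 59). Krt19 introns averaged 19.5, with r = 0.61. Counting error weighs more on low intron levels, and its part in the order of these correlations was not tested.

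Some of the 10 genes rose and fell together among tumors of the same group. Of the 45 pairs, 44 had a positive Pearson r (median 0.35, range -0.01 to 0.70, n = 59), beside a median of 0.002 over all pairs of the 9143 genes with a mean of at least 10 and a 95th percentile of 0.381. In a family of 125 relations tested by permutation within groups, 24 of the 45 pairs passed an adjusted p of 0.05, all with positive r, and 18 of these also passed by Spearman's rho, while 21 pairs did not pass. Over all gene pairs, 7.01% had an r above 0.341, the lowest of a pair that passed. The values share a library and its scaling, so genes of 1 library are not measured independently. Without the 5 libraries with a scaling factor under 0.9 the number passing was 16, with a median r of 0.31, and without the 7 low-end libraries 20, with a median r of 0.38. Leaving out vehicle replicate 4 and propylparaben replicate 15 gave 16, with a median r of 0.25.

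All 6 keratin pairs passed, with r from 0.47 (Krt18 with Krt19) to 0.70 (Krt8 with Krt18). Krt8 and Krt18, partners in 1 filament whose genes lie 23.7 kb apart on chromosome 15 (Krt8 at 101996698 to 102004482, minus strand; Krt18 at 102028180 to 102032027, plus strand; GRCm38), had r = 0.70 (permutation p = 1e-05, adjusted p = 0.000312; rho = 0.73, p = 1e-05). Their r was 0.73 in vehicle, 0.65 in methylparaben and 0.73 in propylparaben, and 0.71 without the 2 tumors farthest from the median of Krt8. Krt7 followed Krt18 with r = 0.64 (p = 1e-05, adjusted p = 0.000312; rho = 0.65, p = 1e-05) and 0.66 without the 2 farthest tumors. Krt19, encoded on chromosome 11, followed Krt8 with r = 0.59 (p = 1e-05, adjusted p = 0.000312; rho = 0.58, p = 3e-05), with 0.71 without the 2 farthest tumors and 0.57 in vehicle, 0.34 in methylparaben and 0.78 in propylparaben.

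The 3 claudin pairs had r from 0.48 (Cldn4 with Cldn7, which did not pass by Spearman's rho) to 0.61. Cldn3 and Cldn4 had r = 0.57 (permutation p = 1e-05, adjusted p = 0.000312; rho = 0.42, p = 0.00144), with 0.62 in vehicle, 0.61 in methylparaben and 0.41 in propylparaben. Cldn3 and Cldn7, on different chromosomes, had r = 0.61 (p = 4e-05, adjusted p = 0.000833; rho = 0.39, p = 0.00252), with 0.81 in vehicle, 0.44 in methylparaben and 0.20 in propylparaben. Without the 2 tumors farthest from the median of Cldn3, these fell to 0.39 and 0.36. No relation was detected between Cldn3 and Krt19 (r = -0.01, p = 0.95; rho = -0.08, p = 0.556). Cdh1 had the lowest mean r with the other 9 genes, 0.24, and Krt18 the highest, 0.44.

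**Figure D4:**
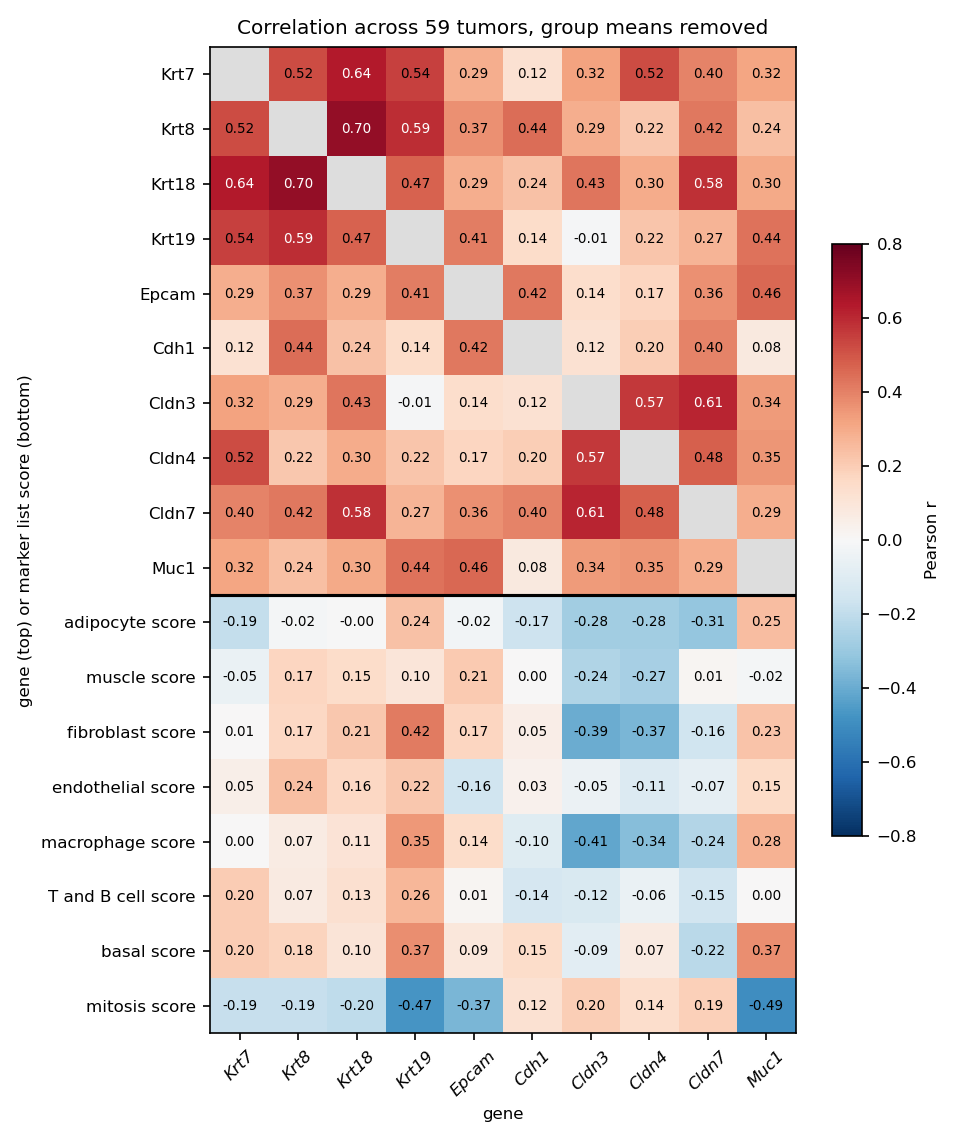
Pearson r across 59 tumors of log2(scaled CPM + 1) with group means removed: the upper block gives the 45 pairs of the 10 genes and the lower block each gene against 8 marker list scores. Red is positive and blue negative; the keratins reach 0.70 (Krt8 with Krt18), and the mitosis score is negative with Muc1 (-0.49), Krt19 (-0.47) and Epcam (-0.37).

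Against marker scores of other cells and of cell division, 11 of 80 relations passed the adjusted threshold, 3 of them positive. The mitosis score, the mean of 20 genes of cell division, was lower where Muc1 was high (r = -0.49, permutation p = 0.0001, adjusted p = 0.00139; rho = -0.51, p = 8e-05), and r was -0.54 in vehicle, -0.40 in methylparaben and -0.54 in propylparaben. Krt19 showed the same sign (r = -0.47, p = 0.0006, adjusted p = 0.00577; rho = -0.50, p = 0.0001), with -0.71 in vehicle, -0.17 in methylparaben and -0.30 in propylparaben. For Epcam it was r = -0.37 (p = 0.00738, adjusted p = 0.0298; rho = -0.36, p = 0.00814), with -0.62 in vehicle and -0.15 in each paraben group. Without the 2 tumors farthest from the median mitosis score, r was -0.45 for Muc1, -0.40 for Krt19 and -0.31 for Epcam, and without the 7 low-end libraries -0.43, -0.36 and -0.13. Those 7 ranked 48 to 59 of 59 by summed mitosis markers, so leaving them out also cut the top of the mitosis range. The mitosis genes themselves had a median log2 difference of -0.48 for methylparaben (2 of 20 called, both down, beside 1.32% of all genes). For propylparaben it was -0.38 (0 called, beside 0.0276% of all genes). The part of the mitosis genes in the differences of Muc1, Krt19 and Epcam was not tested.

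Of the stromal scores, fibroblast passed with Krt19, Cldn3 and Cldn4, macrophage with Cldn3 and Cldn4, and endothelial with none of the 10 genes. Leaving out vehicle replicate 4 and propylparaben replicate 15 changed this set, with 14 of the 80 relations passing. Macrophage with Krt19 (r = 0.47, permutation adjusted p = 0.008) and fibroblast with Krt18 (r = 0.35, adjusted p = 0.0406) then passed. So did muscle with Cldn3 (r = -0.36, adjusted p = 0.029) and Cldn4 (r = -0.345, adjusted p = 0.0397). Macrophage with Cldn4 no longer passed (r = -0.32, adjusted p = 0.0689). The fibroblast score had r = 0.42 with Krt19 (permutation p = 0.00283, adjusted p = 0.0186; rho = 0.38, p = 0.00464), -0.39 with Cldn3 (p = 0.00481, adjusted p = 0.0223; rho = -0.37, p = 0.00481) and -0.37 with Cldn4 (p = 0.00648, adjusted p = 0.0276; rho = -0.33, p = 0.014, adjusted p = 0.0531). Within groups, the value for Krt19 was 0.59 in vehicle, -0.07 in methylparaben and 0.38 in propylparaben; the difference between groups was not tested, and Krt19 varied least in methylparaben. The macrophage score had r = -0.41 with Cldn3 (p = 0.00424, adjusted p = 0.0212; rho = -0.43, p = 0.00102), with -0.48 in vehicle, -0.06 in methylparaben and -0.53 in propylparaben. Without the 2 farthest tumors the fibroblast values were 0.35, -0.28 and -0.25 and the macrophage value -0.38, and without the 7 low-end libraries 0.26, -0.19, -0.32 and -0.26. The basal score, from genes such as Krt5, Krt14 and Acta2, was positive with Krt19 (r = 0.37, p = 0.00456, adjusted p = 0.0219; rho = 0.35, p = 0.00729) and Muc1 (r = 0.37, p = 0.004, adjusted p = 0.0208; rho = 0.36, p = 0.00619), and r was 0.35 for both without the 2 farthest tumors. The other relations that passed were macrophage with Cldn4 (r = -0.34, p = 0.0131, adjusted p = 0.0467; rho = -0.34, p = 0.0102; -0.25 without the 2 farthest) and adipocyte with Cldn7 (r = -0.31, p = 0.00662, adjusted p = 0.0276; rho = -0.25, p = 0.0541; -0.18 without the 2 farthest). In the groups, median log2 differences with methylparaben were 1.19 for the 13 adipocyte markers, 1.21 for the 11 muscle markers, 0.57 for the 12 fibroblast markers and 0.55 for the 12 basal markers, with 0 genes of these lists called. With propylparaben they were 0.84, 0.80, 0.56 and 0.40, again with 0 called, and beyond the composition fit above their part in the members' differences was not tested. Of the luminal list, which holds the 10 members and 10 other genes, 2 were called with methylparaben, beside 1.32% of all genes. Both were higher and neither was a member. Named after their values were seen, they were Gata3 (0.56 ± 0.14, limma adjusted p = 0.0355) and Esr1 (0.88 ± 0.23, limma adjusted p = 0.04). Neither passed with the composition scores as covariates or without the 7 low-end libraries, settings in which 0 of all genes passed. The median of the luminal list was 0.24, with 12 of 20 at a limma unadjusted p under 0.05, beside 22.1% of all genes. That threshold was also met by 12 of 13 adipocyte, 10 of 12 fibroblast and 6 of 12 basal markers. It was met by 1 of 11 muscle markers and 20 of 20 mitosis genes. With propylparaben 0 of the luminal list were called, beside 0.0276% of all genes. Its median was 0.25, and again 12 of 20 were under the unadjusted threshold, beside 18.4% of all genes. There the counts were 3 of 13 adipocyte, 9 of 12 fibroblast, 1 of 12 basal and 0 of 11 muscle markers, and 13 of 20 mitosis genes.

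Tumors at the ends of the distribution were the same for many of the genes. Vehicle replicate 4 was the lowest of 59 for 6 of the 10 genes, Krt7, Krt18, Cldn3, Cldn4, Cldn7 and Muc1, and below the median for all 10. It reached 31.2% of the median for Cldn7, 32.0% for Cldn4 and 32.2% for Muc1, but 91.3% for Cdh1 and 78.6% for Epcam. Over all 9143 genes with a mean of at least 10, the same library was the lowest for 3.57%. From the lowest of 59, its sum over the luminal list (members included) ranked 3, over the 46 other epithelial genes 4, over basal markers (656) 15 and over fibroblast markers (2872) 23. Propylparaben replicate 15 was the highest for 4 genes, Krt8, Krt18, Cdh1 and Cldn7, and above the median for 9 of 10, with Muc1 at 75.9% of the median. That library was the highest for 4.06% of all such genes, its luminal and other epithelial sums were the highest of 59, and its basal marker sum of 299 ranked 5 from the lowest.

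The SD of log2 values within a group was highest in vehicle for all 10 genes, as it was for 58% of the 9143 genes. By the mean distance from the group median, Cdh1 was level between propylparaben (0.212) and vehicle (0.210). For Krt19 the SD of log2 values was 0.71 in vehicle, 0.27 in methylparaben and 0.57 in propylparaben. For Cldn4 it was 0.73, 0.56 and 0.39, and for Cldn7 0.45, 0.23 and 0.25. In a limma test of each tumor's distance from its group median over all genes, 0 of the 10 passed, beside 0.0345% of all genes for methylparaben against vehicle and 0% for the other comparisons. The nearest were Krt19 with methylparaben (-0.35 ± 0.11, unadjusted p = 0.00175, adjusted p = 0.24) and Cldn4 with propylparaben (-0.28 ± 0.12, unadjusted p = 0.0159, adjusted p = 0.498). Each was the only one of the 10 under an unadjusted p of 0.05 in its comparison, where 9.88% and 8.41% of all genes were. Without the 7 low-end libraries, 6 of them vehicle, these became -0.25 and -0.21, Krt19 with propylparaben went from -0.17 to -0.05, and Epcam (0.03 and 0.02) and Muc1 (0.02 and 0.01) turned positive for methylparaben and propylparaben. Among genes with a mean of at least 10, the SD within groups of Cldn4 lay at the 92.0 percentile, that of Krt19 at 90.5 and that of Muc1 at 85.0, whereas Cdh1 lay at 36.7 and Epcam at 32.0.

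**Figure D5:**
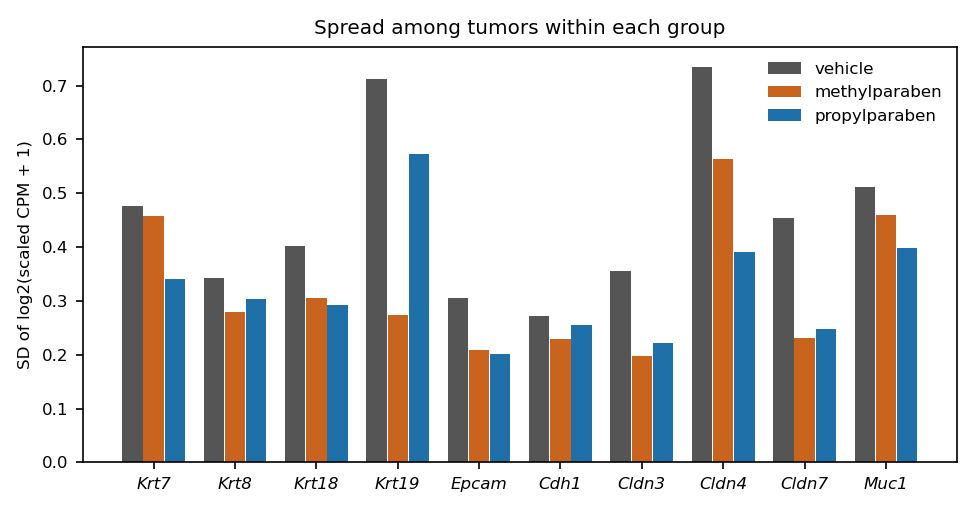
SD of log2(scaled CPM + 1) among the tumors of each group, for the 10 genes (bars from 0). The vehicle bar is the highest for every gene, with 0.71 for Krt19 and 0.73 for Cldn4, and the Krt19 bar of methylparaben is 0.27.

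Of 46 further epithelial genes (other keratins, claudins, desmosome, tight and adherens junction parts and epithelial transcription factors), 0 passed in any comparison by limma. Over all genes 1.32% passed for methylparaben, 0.0276% for propylparaben and 0% between the esters. In the same order, the median log2 differences of the 46 genes were 0.02, -0.00 and 0.01. Among those with the smallest p, none passed. With methylparaben they included Nectin4 (0.31 ± 0.09, limma adjusted p = 0.0605), Krt23 (-0.63 ± 0.20) and Cldn8 (-0.60 ± 0.20). With propylparaben they included Krt23 (-0.73 ± 0.20, limma adjusted p = 0.0758), the p120 catenin gene Ctnnd1 (0.41 ± 0.12) and the plakoglobin gene Jup (0.23 ± 0.08). The 10 mesenchymal genes, among them Vim and Fn1, had median log2 differences of 0.48 with methylparaben and 0.37 with propylparaben. In both comparisons all 10 were above 0, beside 51.2% and 49.8% of all genes, and 0 were called, beside 1.32% and 0.0276%.

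The genes whose pattern across the 59 tumors was most like the mean of the 10 standardized genes were Myh14 (Pearson r = 0.73), Tmem63a (0.72), Dusp8 (0.71), Pacsin3 (0.71), Limk2 (0.70) and Smagp (0.70). Those most opposed were Cep85l (-0.69), Tmem64 (-0.63), Cep135 (-0.63) and Ntrk2 (-0.61). Myh14 encodes a non-muscle myosin heavy chain, Limk2 a kinase that acts on cofilin, and Cep135 a centriole protein. These values describe group-centered levels of genes with a mean of at least 10 and were not tested.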

How the data were processed

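Total RNA of 59 mammary tumors was sequenced. Per the submitters' processing notes, bcl2fastq 2.20.0.422, STAR 2.6.1d and HTSeq 0.10.0 were used with build GRCm38; the annotation, strand setting and definition of introns are named by no source used here. The authors deposited a signal per gene and per gene's introns, normalized counts per the labels. These values equaled CPM scaled by TMM factors, 5 HTSeq summary lines included, with a largest gap of 5e-13%, and 100% of gene values were whole reads within 1e-06 reads. Reads without a gene were 27.7 to 47.9% of a library's total and were not tested as features. They count in the library totals and scaling factors behind the deposited gene values. No column was left unused.

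Groups came from the treatment label, and replicate numbers follow record order. Log2(value + 1) was fitted with limma 3.58.1 (trend) in R 4.3.3, all 59 libraries in 1 fit, for features whose mean over all libraries reached 1, and for gene minus intron where both means were at least 10. Adjusted p-values are Benjamini-Hochberg over all features tested, with a threshold of 0.05. A fold change on this scale understates the change of low genes. Recovered reads were tested with edgeR 4.0.16 and DESeq2 1.42.0, which gave no adjusted p for 1405, 2528 and 0 genes. Correlations used log2 values with group means removed and 100000 two-sided permutations within groups. GENCODE M21 gave positions and lengths, for 55240 gene identifiers. Opposite-strand genes overlap exons of Krt7, Krt8 and Cldn3 by 40 to 101 bases, at mean levels of 0.157 to 1.59. The scripts were tested on simulated data.

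The genes and lists were chosen with earlier results of these data known. Named genes were all 10 members, the 4 further epithelial genes with the smallest p where none passed, and the 6 most alike and 4 most opposed genes. One gene that this rule names is not reported here. Alternatives were 2 other pseudocounts, no filter or a mean of at least 100, 3 other scalings, only the 2 groups compared, tumor number or composition scores as covariates, both count tests, each library left out, and the 2 sets of libraries named in the text left out. Leaving out vehicle replicate 4 and propylparaben replicate 15 was chosen after seeing the data.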

Additional observations from a re-analysis of the deposited data

How the results depend on the processing

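No paired analysis was possible because no label ties a vehicle tumor to a paraben tumor. The direction and side of the threshold of single members held in most settings, while counts over all genes did not. For methylparaben against vehicle, the 191 calls became 640 with DESeq2, 619 with edgeR, 80 with a mean of at least 100, 25 with no filter, 2 with only the 2 groups compared, and 0 with composition scores as covariates or without the 7 low-end libraries. For propylparaben against vehicle, the 4 calls became 231 with DESeq2, 22 with edgeR, 75 with a mean of at least 100, 8 with tumor number as covariate, 7 with plain CPM, 2 with no filter and 0 with only the 2 groups compared, with composition scores or without those 7. Between the esters edgeR called 17 genes in place of 0. For methylparaben, 7 introns passed with a mean of at least 10 in place of 0, and without the 7 libraries 0 genes passed the spread test in place of 5. Leaving out 1 library at a time gave 1 (without vehicle replicate 8) to 932 (without vehicle replicate 5) genes for methylparaben, 1 (without propylparaben replicate 14) to 424 (without vehicle replicate 5) for propylparaben and 0 to 1 between the esters; of the 10 members 0 to 1 passed for either paraben. DESeq2 called 1 member, Muc1, for propylparaben. The cause of these changes was not tested.

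Apart from Cldn4 with methylparaben (-0.16), the values that changed sign were under 0.1 in size. For methylparaben, Cldn4 became 0.032 with composition scores, and Cldn7 became -0.028 with DESeq2, -0.049 with edgeR, -0.018 with plain CPM, -0.00129 with a pseudocount of 10, -0.014 with quantile normalization and -0.00216 with tumor number as covariate. Between the esters, Cldn3 became 0.0065 with edgeR and 0.0093 with plain CPM, and Epcam -0.015 without the libraries with a scaling factor under 0.9. For propylparaben, Cdh1 became -0.026 without the latter, and Krt18 0.0030 without the 7 low-end libraries. With single libraries left out, log2 differences crossed 0 for Cldn7 (-0.085 to 0.043), Krt18 (-0.011 to 0.085) and Krt7 (-0.017 to 0.11) with methylparaben, for Cdh1 (-0.0068 to 0.049), Cldn7 (-0.045 to 0.075) and Krt7 (-0.080 to 0.028) with propylparaben, and for Cldn3 (-0.031 to 0.0097), Cldn4 (-0.086 to 0.051), Cldn7 (-0.0039 to 0.054), Epcam (-0.0015 to 0.043) and Krt19 (-0.12 to 0.012) between the esters. Depth limits Muc1, Cldn4 and Krt7 most.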
